A study of Homo sapiens with 12 samples.

Results

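Glucose breakdown and the response to low oxygen were followed in RPE1 cells through 35 genes: transporters and enzymes that take glucose to lactate, the enzymes that set its rate, and the oxygen-sensing factors with some of their best known target genes. The genes were chosen by symbol from what is known of the 2 pathways, and all 35 were found among the 22496 genes of the deposited count table, 32 of them with enough counts to be tested. RPE1 is an immortalised human line derived from retinal pigment epithelium, used here as 1 wild-type line. The first group of 4 libraries (DOX_F) came from cells given 50 nM doxorubicin combined with ferrostatin-1 at 5 µM, a lipid radical scavenger that blocks ferroptosis, the second group of 4 (DOX) from cells given 50 nM doxorubicin, an anthracycline that poisons topoisomerase II, and the third group of 4 (CTRL) from cells given the solvent DMSO. Drugs were added at plating and kept for 72 h, with ferrostatin-1 renewed at 48 h, and all 3 groups grew under the same culture conditions with no oxygen restriction named in the labels. Ferrostatin-1 was not given alone in these libraries, so each of its differences was measured on top of doxorubicin.

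Glycolysis splits glucose into pyruvate in the cytosol. Hexokinase traps glucose as glucose 6-phosphate, phosphofructokinase commits it to the pathway, and lactate dehydrogenase turns pyruvate into lactate, which monocarboxylate transporters carry out of the cell. Many of these genes are targets of the hypoxia-inducible factors, dimers of an oxygen-sensitive alpha subunit (HIF1A or EPAS1, also called HIF-2 alpha) with ARNT. In oxygen the prolyl hydroxylases EGLN1 and EGLN3 mark the alpha subunits for destruction by the VHL ubiquitin ligase, so the activity of these factors is set mainly by the amount of protein, which RNA counts do not measure.

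The promoters of 5 genes are shown because their RNA changed when ferrostatin-1 was added and because most of them are known HIF target genes. Each line gives RefSeq's window on GRCh38.p14 from 250 bases before to 50 bases after the start of transcription, read 5′ to 3′ on the gene's own strand. Capitals mark ACGTG and GCGTG, on either strand. Both are forms of the hypoxia response element core that HIF dimers bind, and GCGTG is also bound by the related aryl hydrocarbon receptor. On the opposite strand these cores read CACGT and CACGC. In the E-box CACGTG, 2 ACGTG cores, 1 on each strand, overlap by 4 bases. The windows are chr2:74833877-74834176 (plus strand) for HK2, chr11:18394313-18394612 (plus) for LDHA, chr12:6914330-6914629 (plus) for ENO2, chr2:46297157-46297456 (plus) for EPAS1 and chr1:42958819-42959118 (minus) for SLC2A1.
HK2: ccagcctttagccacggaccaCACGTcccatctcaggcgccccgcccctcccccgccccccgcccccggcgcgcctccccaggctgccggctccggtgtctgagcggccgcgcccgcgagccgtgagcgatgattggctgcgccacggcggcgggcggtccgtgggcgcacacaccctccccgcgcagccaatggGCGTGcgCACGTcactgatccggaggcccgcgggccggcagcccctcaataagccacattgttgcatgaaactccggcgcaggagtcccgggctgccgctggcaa
LDHA: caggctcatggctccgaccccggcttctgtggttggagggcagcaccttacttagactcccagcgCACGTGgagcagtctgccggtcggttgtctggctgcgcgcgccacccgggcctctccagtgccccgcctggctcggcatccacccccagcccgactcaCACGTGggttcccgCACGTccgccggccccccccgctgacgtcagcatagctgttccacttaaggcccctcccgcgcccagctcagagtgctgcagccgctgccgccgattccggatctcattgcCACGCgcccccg
ENO2: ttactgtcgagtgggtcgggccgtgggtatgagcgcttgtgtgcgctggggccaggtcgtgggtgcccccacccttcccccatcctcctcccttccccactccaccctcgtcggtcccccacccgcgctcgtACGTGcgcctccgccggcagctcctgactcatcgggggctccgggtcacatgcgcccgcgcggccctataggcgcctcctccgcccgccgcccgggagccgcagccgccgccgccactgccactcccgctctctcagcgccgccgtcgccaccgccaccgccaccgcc
EPAS1: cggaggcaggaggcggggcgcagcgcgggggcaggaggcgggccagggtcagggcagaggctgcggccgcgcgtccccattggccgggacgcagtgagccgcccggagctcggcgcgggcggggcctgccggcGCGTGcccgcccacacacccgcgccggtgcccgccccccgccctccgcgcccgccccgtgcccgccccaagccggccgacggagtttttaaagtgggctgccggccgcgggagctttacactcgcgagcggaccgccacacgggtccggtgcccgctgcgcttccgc
SLC2A1: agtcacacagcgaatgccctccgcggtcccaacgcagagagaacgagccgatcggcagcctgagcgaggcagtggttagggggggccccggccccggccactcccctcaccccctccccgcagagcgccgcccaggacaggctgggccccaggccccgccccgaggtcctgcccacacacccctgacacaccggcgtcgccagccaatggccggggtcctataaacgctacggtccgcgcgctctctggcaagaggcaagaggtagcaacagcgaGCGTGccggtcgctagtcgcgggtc

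With the start base counted as 1, the LDHA window held ACGTG 5 times: at -185 and -184, and again at -87 and -86, as the 2 strands of an E-box, and at -73 on the opposite strand. HK2 held it at -229 and -48, both on the opposite strand, beside a GCGTG at -55. A further HK2 window, chr2:74834920-74835219, is not shown. It held ACGTG 4 times, as the strands of 2 E-boxes, and GCGTG 2 times. ENO2 held a single ACGTG at -118. EPAS1 and SLC2A1 held no ACGTG in these windows and 1 GCGTG each, at -117 and at 26. The lack of ACGTG thus does not exclude a HIF core in these 2 windows. Of all 35116 promoter windows of this length, 21.4% held ACGTG, 36.5% held GCGTG and 7.26% held CACGTG, on either strand. For 22 pathway genes a window lay at the gene's outermost annotated start, and of these 11 held ACGTG, 14 held GCGTG and 3 held CACGTG. The 35116 windows were not restricted to outermost starts, so these counts and those percentages come from unlike sets. These are matches of letters only. Windows were found for 30 of the 35 genes, and VEGFA and BNIP3L are not among them.

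Levels are CPM, counts relative to library size, here scaled by trimmed mean of M values (TMM) and given as mean ± SD with n = 4, and differences are log2 fold changes ± standard error from edgeR's quasi-likelihood test, called at an adjusted p below 0.05. Library totals ran from 17523920 to 24879198 counts, so a count of 0 allows a level of up to 0.124 to 0.172 CPM, for counting error only. CTRL replicate 1 stood apart from the other controls. A chi-square test of its gene counts against each other control gave 8.07 to 13.9 per degree of freedom. The other 3 controls differed among themselves by 3.60 to 4.85. Pairs of DOX libraries gave 3.82 to 7.71 and pairs of DOX_F libraries 6.57 to 9.3, while DOX against DOX_F libraries gave 9.82 to 16.2. Epithelial markers, nearly all KRT8 and KRT18, summed to 1077 to 1189 CPM in DOX_F, 1098 to 1142 in DOX and 558 to 652 in CTRL libraries, and 10 retinal pigment epithelium markers to 62.2 to 70.2 CPM in DOX_F, 58.1 to 58.7 in DOX and 65.2 to 66.6 in CTRL libraries. The surface markers EPCAM and CDH1, which define many epithelia, had at most 1 and 3 reads in any library. Nearly all of the retinal pigment epithelium sum came from the transcription factors MITF and OTX2, while the pigment gene TYR and the transport protein gene TTR had at most 1 read in any library. The sum of 3 proliferation markers (MKI67, TOP2A and CCNB1) was 59.2 to 70.2 CPM in DOX_F, 71.2 to 75.7 in DOX and 1355 to 1668 in CTRL libraries, and 4 neuronal markers, with TUBB3 making up most of them, summed to 595 to 654 CPM in DOX_F, 512 to 543 in DOX and 406 to 475 in CTRL libraries. Immune, endothelial and erythroid markers summed to at most 1.74 CPM in any library. The part of these marker differences in the results below was not tested, and in bulk RNA fewer cells of a kind and less RNA per cell cannot be told apart.

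Doxorubicin against DMSO asked how 72 h of the drug changed these pathways. The 2 HIF alpha genes rose and the HIF target VEGFA fell, while glycolytic enzymes went both ways: ALDOA, PFKM, HK2 and PKM rose, and ENO1, ENO2, LDHA and TPI1 fell. Of the 32 genes tested, 12 were called higher and 13 lower in DOX libraries, and 7 did not pass. That is 78.1% called, against a background of 64.0% of all 13801 genes tested (32.2% higher and 31.8% lower). The median log2 fold change of the 32 was -0.04, against -0.01 over all genes, and the median absolute change was 0.25, against 0.38 over all genes. Only EPAS1, VEGFA and ALDOC were called with a change of at least 2-fold, 3 of 32 against 13.7% of all genes. The groups did not overlap for 21 of the 32, against 58.7% of all genes tested. Without CTRL replicate 1 the count was again 25, with 11 higher and 14 lower. PGK1 (0.10, adjusted p = 0.062) and PFKFB3 (-0.13, adjusted p = 0.0565) then missed the threshold, while PFKFB4 (-0.25, adjusted p = 0.0221) and PDK3 (-1.20, adjusted p = 0.0434), too low for the test with all libraries, passed it. When libraries were scaled by their totals, the median of all genes shifted to -0.15 and that of the 32 to -0.18, with 8 called higher and 17 lower (3244 and 5756 of all genes, against 4441 and 4393).

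**Figure D1:**
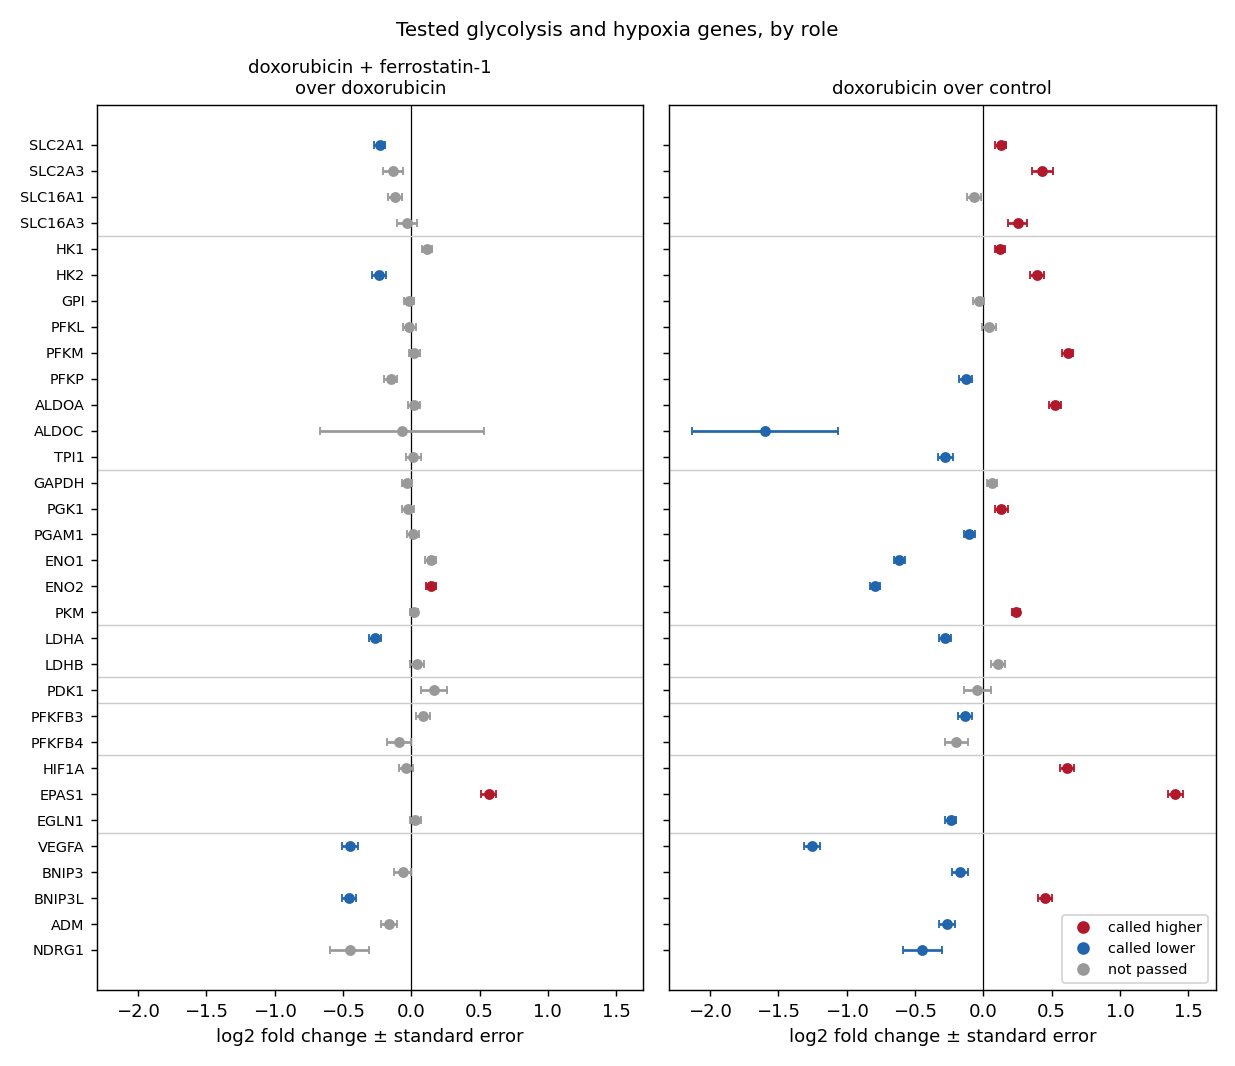
Log2 fold change ± standard error (horizontal axes) of the 32 tested genes, ordered from transporters through glycolysis to HIF targets, for doxorubicin with ferrostatin-1 over doxorubicin (left) and doxorubicin over control (right). EPAS1 lies right of 0 in both panels (0.57 and 1.41) and VEGFA left of 0 in both (-0.45 and -1.26), while BNIP3L and HK2 lie left of 0 in the left panel and right of 0 in the right panel.

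Of the 2 glucose transporters tested, SLC2A3 was called higher under all 19 alternative settings run, and SLC2A1 under all but scaling by library totals. SLC2A1, the main glucose transporter of most cell lines (GLUT1; ENSG00000117394.24, chromosome 1 from 42925375 to 42959176 on GRCh38), had 602, 619, 622 and 614 CPM in DOX libraries and 547, 580, 553 and 570 CPM in CTRL libraries. All 4 DOX libraries lay above all 4 controls, and the call of a rise (0.13 ± 0.041, adjusted p = 0.0131) turned to a difference of -0.02 that did not pass when libraries were scaled by their totals. SLC2A3, a high-affinity glucose transporter (GLUT3), averaged 16.0 ± 0.626 CPM in DOX and 11.8 ± 0.589 CPM in CTRL libraries (0.43 ± 0.074, adjusted p = 0.000127). Per kilobase of its main transcript it stayed far below SLC2A1 in both groups, with 4.08 against 167 CPM per kb in DOX and 3.03 against 153 CPM per kb in CTRL libraries. Of the lactate transporters, SLC16A3 (MCT4, an exporter of strongly glycolytic cells) averaged 595 ± 21.1 CPM in DOX and 500 ± 48.5 in CTRL libraries (0.25 ± 0.070, adjusted p = 0.00596), a call lost with library totals (0.11, adjusted p = 0.176). The antisense gene CSNK1D overlaps SLC16A3 and had 31.7% as many counts, and the library kit does not mark strands. SLC16A1 (MCT1) did not pass (-0.07 ± 0.050, adjusted p = 0.231), but was called lower by library totals (-0.22, adjusted p = 0.00153).

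Among 9 genes of the upper part of glycolysis, up to the triose phosphates, 4 rose, HK1 not when scaled by library totals, and 3 fell. Over all genes tested, 32.2% were called higher and 31.8% lower. HK2, the inducible hexokinase bound to mitochondria (ENSG00000159399.10, chromosome 2 from 74833981 to 74893359), had 69.9, 73.9, 69.6 and 74.1 CPM in DOX libraries and 57.5, 56.9, 52.4 and 52.3 CPM in CTRL libraries. These groups did not overlap (0.39 ± 0.054, adjusted p = 1.39e-05). HK1, the hexokinase of most tissues, was higher by 0.13 ± 0.036 (adjusted p = 0.00758), and by library totals the difference was -0.02. The 3 phosphofructokinase genes went apart: PFKM, the muscle form, rose (105 ± 2.48 CPM in DOX, 68.3 ± 2.71 in CTRL libraries; 0.62 ± 0.041, adjusted p = 4.91e-09), PFKP, the platelet form, was called lower by a small margin (-0.13 ± 0.047, adjusted p = 0.0279; lost in 5 of 19 alternative settings, among them without CTRL replicate 2 or 4 and without DOX replicate 2 or 3), and PFKL, the liver form, did not pass (0.04 ± 0.051, adjusted p = 0.511; -0.10 by library totals, adjusted p = 0.0757). SENP1 lies antisense to PFKM, with 19.2% as many counts. GPI, which turns glucose 6-phosphate into fructose 6-phosphate, did not pass either (-0.03 ± 0.038, adjusted p = 0.435), but was called lower by library totals (-0.18, adjusted p = 0.000566).

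ALDOA, the main aldolase, averaged 1580 ± 23.0 CPM in DOX and 1101 ± 63.3 CPM in CTRL libraries (0.52 ± 0.044, adjusted p = 8.46e-08). ALDOC, the aldolase of brain, was close to the limit of counting, with 3, 2, 10 and 7 reads in DOX and 22, 19, 17 and 16 reads in CTRL libraries. Its groups did not overlap (-1.60 ± 0.54, adjusted p = 0.0171), but the call was lost without DOX replicate 1 (adjusted p = 0.053) or DOX replicate 2 (adjusted p = 0.0563). TPI1, which interconverts the 2 triose phosphates, averaged 589 ± 28.9 CPM in DOX and 714 ± 55.1 in CTRL libraries (-0.28 ± 0.055, adjusted p = 0.000451).

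Among 6 genes of the lower part, down to pyruvate, 2 rose, PGK1 not when scaled by library totals, and 3 fell, the enolases furthest. The background here too was 32.2% higher and 31.8% lower. ENO1, the common enolase, averaged 1695 ± 34.7 CPM in DOX and 2598 ± 149 CPM in CTRL libraries (-0.62 ± 0.041, adjusted p = 5e-09). ENO2, the enolase known from neurons (ENSG00000111674.9, chromosome 12 from 6913745 to 6923698), had 68.5, 66.2, 70.1 and 68.3 CPM in DOX and 116, 117, 121 and 119 CPM in CTRL libraries. Its SD was 1.57 in DOX and 2.07 CPM in CTRL libraries, so the gap was many times the spread (-0.79 ± 0.037, adjusted p = 9.88e-11). By CPM, ENO1 stood above ALDOA in both groups (1695 against 1580 in DOX, 2598 against 1101 in CTRL libraries). Only when scaled by length did ENO1 and ALDOA change places. Per kilobase of main transcript, ALDOA stood above ENO1 in DOX libraries (986 against 723 CPM per kb) and below it in CTRL libraries (687 against 1108 CPM per kb), an order that was the same per kilobase of coding sequence.

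GAPDH, often used as a reference gene (ENSG00000111640.15, chromosome 12 from 6533927 to 6538374), had 5215, 5243, 5658 and 5286 CPM in DOX libraries and 4770, 5110, 5246 and 5392 CPM in CTRL libraries. These ranges overlapped and the difference did not pass (0.06 ± 0.037, adjusted p = 0.167), while by library totals it was -0.08 (adjusted p = 0.0377). PGK1, the first step that yields ATP, was higher (0.13 ± 0.045, adjusted p = 0.0193), with -0.01 by library totals, and did not pass without CTRL replicate 1 or 2 or without DOX replicate 3 (adjusted p = 0.0508 to 0.0671). PKM, the pyruvate kinase whose splice forms these counts do not separate, averaged 3750 ± 59.0 CPM in DOX and 3182 ± 76.1 CPM in CTRL libraries (0.24 ± 0.028, adjusted p = 3.57e-06). PGAM1, the phosphoglycerate mutase, was called lower (-0.10 ± 0.042, adjusted p = 0.0442) with overlapping groups, and 9 of the 19 alternative settings lost that call, among them leaving out any 1 of 6 libraries.

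LDHA, the lactate dehydrogenase subunit that favours lactate formation, had 941, 940, 1011 and 871 CPM in DOX libraries and 1106, 1118, 1157 and 1182 CPM in CTRL libraries (identifier ENSG00000288299.1; by its symbol, chromosome 11 from 18394388 to 18408425). Every DOX library lay below every control (-0.28 ± 0.045, adjusted p = 7.58e-05). LDHB, the subunit of oxidative tissues, did not pass (0.11 ± 0.053, adjusted p = 0.0922; -0.04 by library totals, adjusted p = 0.536). PFKFB3, which makes the phosphofructokinase activator fructose 2,6-bisphosphate, was called lower (-0.13 ± 0.052, adjusted p = 0.035), a call that 8 of 19 alternatives lost. PFKFB4, a related enzyme, did not pass (-0.20 ± 0.087, adjusted p = 0.059; called by library totals at -0.34, adjusted p = 0.00282), nor did PDK1, a kinase that shuts off pyruvate dehydrogenase (-0.04 ± 0.098, adjusted p = 0.716). PDK3, another such kinase, had 8, 7, 2 and 5 reads in DOX and 6, 10, 21 and 11 reads in CTRL libraries and was not tested. Counts of the 17 genes for the steps to lactate made up 1.67% ± 0.0342 of all counts in DOX and 1.84% ± 0.0657 in CTRL libraries (SD, n = 4 each). That difference rests on library totals: scaled by TMM, the same genes summed to 17239 ± 397 CPM in DOX and 17189 ± 771 CPM in CTRL libraries.

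Among the oxygen-sensing genes, EPAS1 rose most (ENSG00000116016.14, chromosome 2 from 46293667 to 46386703). It had 135, 130, 134 and 133 CPM in DOX libraries and 50.5, 55.8, 48.2 and 46.4 CPM in CTRL libraries. The lowest DOX library, 130 CPM, was well above the highest control, 55.8 CPM, and the fitted difference was 2.65-fold (1.41 ± 0.057, adjusted p = 2.03e-11). HIF1A (ENSG00000100644.17, chromosome 14 from 61695513 to 61748259) had 608, 584, 608 and 560 CPM in DOX libraries and 422, 369, 382 and 369 CPM in CTRL libraries. The groups did not overlap (0.61 ± 0.051, adjusted p = 6.47e-08). EGLN1, the main prolyl hydroxylase, averaged 60.8 ± 1.63 CPM in DOX and 71.8 ± 2.25 CPM in CTRL libraries (-0.24 ± 0.042, adjusted p = 0.000149), and EGLN3 had no more than 1 read in any library.

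The HIF target genes moved in both directions: of the 5 tested, 1 was higher and 4 were lower. So did all genes tested, with 32.2% called higher and 31.8% lower. VEGFA, the angiogenic growth factor (ENSG00000112715.26, chromosome 6 from 43770184 to 43786487), had 58.6, 65.0, 57.9 and 65.5 CPM in DOX libraries and 149, 161, 142 and 138 CPM in CTRL libraries. The highest DOX library, 65.5 CPM, was far below the lowest control, 138 CPM (0.418-fold; -1.26 ± 0.058, adjusted p = 7.51e-11). BNIP3L, a receptor for removal of mitochondria also called NIX, had 177, 184, 176 and 161 CPM in DOX libraries and 130, 124, 133 and 125 CPM in CTRL libraries, again without overlap (0.45 ± 0.051, adjusted p = 1.95e-06). The antisense gene PNMA2 overlaps exons of BNIP3L and had 113% as many counts. BNIP3, a related receptor, was called lower (-0.17 ± 0.062, adjusted p = 0.0253), a call lost without CTRL replicate 4 or without DOX replicate 1, 2 or 4 (adjusted p = 0.0548 to 0.0804). Also lower were ADM, the vasodilator peptide adrenomedullin (-0.27 ± 0.058, adjusted p = 0.00105), and NDRG1, a stress-response gene (-0.45 ± 0.14, adjusted p = 0.0126). CA9, a carbonic anhydrase that is among the most oxygen-dependent of HIF targets, had 3, 1, 1 and 0 reads in DOX and 10, 6, 9 and 7 reads in CTRL libraries. It was too low to be tested. With no filter on low counts its fitted log2 difference was -2.43 (adjusted p = 0.0114), on a handful of reads, and ARHGEF39 lies antisense to it with more reads.

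**Figure D2:**
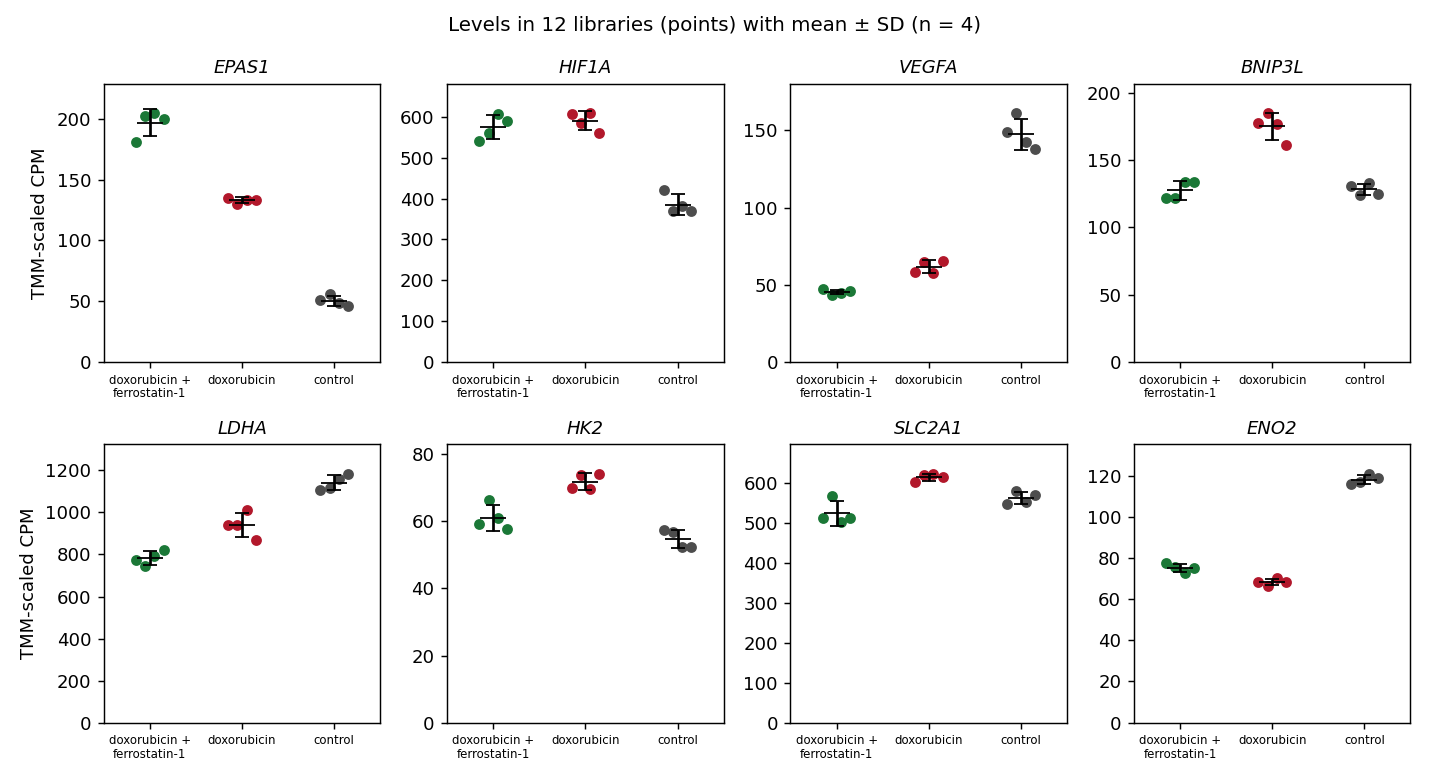
TMM-scaled CPM (vertical axes, from 0) of 8 genes in each of 12 libraries, as points with mean ± SD, for doxorubicin with ferrostatin-1, doxorubicin and control. EPAS1 is highest and VEGFA lowest with both compounds, BNIP3L and HK2 are highest with doxorubicin alone, LDHA is lowest with both compounds (784 ± 31.4 CPM), and ENO2 is lowest with doxorubicin alone (68.3 ± 1.57 CPM).

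Doxorubicin with ferrostatin-1 against doxorubicin asked what the scavenger changed in drug-treated cells. EPAS1 and ENO2 were higher and VEGFA, BNIP3L, LDHA, HK2 and SLC2A1 lower with ferrostatin-1, by log2 fold changes between -0.45 and 0.57. These 7 of 32 tested genes (2 higher, 5 lower) are 21.9%, against a background of 5.01% of all genes (2.16% higher and 2.85% lower). The groups did not overlap for 9 of the 32, which are the 7 called genes with ENO1 and NDRG1, against 10.9% of all genes. The median of the 32 was -0.03 and over all genes 0.00. By role, 1 of 4 transporters was lower, 1 of 9 genes of upper glycolysis was lower, 1 of 6 of lower glycolysis was higher, 1 of 2 lactate dehydrogenase genes was lower, 1 of 3 oxygen-sensing genes was higher and 2 of 5 HIF targets were lower.

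EPAS1 had 181, 202, 204 and 200 CPM in DOX_F libraries, against 135, 130, 134 and 133 CPM in DOX libraries. All 4 DOX_F libraries were higher, by 0.57 ± 0.054 (1.48-fold, adjusted p = 1.15e-05), and the 19 alternatives ranged from 0.55 to 0.60. HIF1A had 541, 560, 606 and 591 CPM in DOX_F libraries, against 608, 584, 608 and 560 CPM in DOX libraries, which overlapped and did not pass (-0.04 ± 0.051, adjusted p = 0.808). EGLN1 did not pass (0.03 ± 0.042, adjusted p = 0.818).

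VEGFA had 47.0, 43.5, 44.6 and 45.9 CPM in DOX_F libraries, against 58.6, 65.0, 57.9 and 65.5 CPM in DOX libraries. Each DOX_F library was below each DOX library (-0.45 ± 0.059, adjusted p = 0.000284). For BNIP3L, the overlap with antisense PNMA2 applies here too, since the library kit does not mark strands. BNIP3L had 121, 122, 134 and 134 CPM in DOX_F libraries, against 177, 184, 176 and 161 CPM in DOX libraries (-0.45 ± 0.051, adjusted p = 5.6e-05). Its DOX_F libraries spanned the range of the controls, 124 to 133 CPM. The fold change of NDRG1 was of the same size, with groups that did not overlap, but its error was larger and it did not pass (-0.45 ± 0.14, adjusted p = 0.108). ADM (-0.16 ± 0.059, adjusted p = 0.166) and BNIP3 (-0.06 ± 0.062, adjusted p = 0.726) did not pass. CA9 had 2, 1, 5 and 2 reads in DOX_F libraries, against 3, 1, 1 and 0 reads in DOX libraries.

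LDHA had 775, 746, 793 and 820 CPM in DOX_F libraries, against 941, 940, 1011 and 871 CPM in DOX libraries. The highest DOX_F library was below the lowest DOX library (-0.26 ± 0.045, adjusted p = 0.00246). SLC2A1 had 513, 568, 501 and 513 CPM in DOX_F libraries, against 602, 619, 622 and 614 CPM in DOX libraries (-0.23 ± 0.041, adjusted p = 0.00307). HK2 had 59.3, 66.5, 60.9 and 57.6 CPM in DOX_F libraries, against 69.9, 73.9, 69.6 and 74.1 CPM in DOX libraries (-0.24 ± 0.053, adjusted p = 0.0174), and leaving out DOX replicate 2 or 4, or DOX_F replicate 1 or 4, took its adjusted p to between 0.0542 and 0.0633. ENO2 had 77.5, 75.8, 72.9 and 75.1 CPM in DOX_F libraries, against 68.5, 66.2, 70.1 and 68.3 CPM in DOX libraries. Its call (0.14 ± 0.037, adjusted p = 0.0417) did not hold in 13 of 19 alternatives, with an adjusted p of up to 0.152, although the fold change stayed between 0.13 and 0.16. ENO1 differed by as much without passing (0.14 ± 0.041, adjusted p = 0.065), but passed in 4 of 19 alternatives.

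The 23 tested genes outside these 9 did not pass, GAPDH among them with 5181, 5267, 5149 and 5321 CPM in DOX_F libraries, against 5215, 5243, 5658 and 5286 CPM in DOX libraries (-0.03 ± 0.037, adjusted p = 0.766). Of these 23, HK1 passed in 1 of 19 alternatives and PFKP in 2 of 19. ALDOC had 15, 5, 2 and 3 reads in DOX_F libraries, against 3, 2, 10 and 7 reads in DOX libraries. Outside the 9 genes whose groups did not overlap, fold changes ran from -0.16 for ADM to 0.17 for PDK1. The 17 genes for the steps to lactate summed to 17231 ± 361 CPM in DOX_F libraries, against 17239 ± 397 CPM in DOX libraries (SD, n = 4 each).

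The same DOX_F libraries were also compared with the same controls, and since this comparison shares its libraries with the others its values are only set beside them. Of the 32 genes, 11 were higher and 14 lower, 78.1% against a background of 64.3% of all genes (32.0% higher and 32.3% lower), and the groups did not overlap for 21 of them, against 57.7% of all genes. By library totals 6 were higher and 20 lower. EPAS1 was at 197 ± 10.9 CPM in DOX_F, 133 ± 2.34 in DOX and 50.2 ± 4.08 in CTRL libraries, 3.92-fold over control with both compounds (1.97 ± 0.057, adjusted p = 4.17e-13). VEGFA was at 45.2 ± 1.48 CPM in DOX_F, 61.7 ± 4.07 in DOX and 148 ± 10.1 in CTRL libraries (-1.71 ± 0.058 for DOX_F over CTRL, adjusted p = 2.67e-12). LDHA was lower by 0.54 on the log2 scale in DOX_F than in CTRL libraries (-0.54 ± 0.045, adjusted p = 6.87e-08), with levels of 784 ± 31.4, 941 ± 57.3 and 1141 ± 35.02 CPM in DOX_F, DOX and CTRL libraries. SLC2A1 was called lower with both compounds than in controls (-0.10 ± 0.041, adjusted p = 0.0379), a call that 7 of 19 alternatives lost. For BNIP3L the difference from control did not pass (-0.01 ± 0.051, adjusted p = 0.922), though by library totals it was called lower (-0.16, adjusted p = 0.0134), at 128 ± 7.01 CPM in DOX_F, 175 ± 9.87 in DOX and 128 ± 4.36 in CTRL libraries.

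Ratios of 2 related genes within a library do not depend on how libraries are scaled. The 13 pairs were compared by a two-sided exact permutation test over 4 against 4 libraries, whose smallest possible p is 0.0286, with adjustment over the 13. In DOX against CTRL libraries 10 pairs did not overlap and passed (each at an adjusted p of 0.0371 by the exact test). The share over other gene pairs was not computed, and of all single genes tested 58.7% did not overlap in this comparison. Among the 10 is ALDOC to ALDOA, which rests on 2 to 22 ALDOC reads per library. The mean log2 ratio of PFKM to PFKL was -0.75 ± 0.0527 in DOX and -1.33 ± 0.0713 in CTRL libraries, that of EPAS1 to HIF1A was -2.15 ± 0.0537 in DOX and -2.94 ± 0.147 in CTRL libraries, and that of LDHA to LDHB was 0.67 ± 0.0487 in DOX and 1.05 ± 0.0507 in CTRL libraries (SD, n = 4 each). Thus EPAS1 gained on HIF1A although both rose, and LDHA lost ground to LDHB. The ratios of PDK3 to PDK1, PFKFB4 to PFKFB3 and EGLN3 to EGLN1 did not pass.

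In DOX_F against DOX libraries 5 pairs did not overlap, and none passed after adjustment (exact permutation p = 0.0286, adjusted p = 0.0743), which for 5 of 13 pairs is the lowest value the design allows. They were HK2 to HK1 with a mean log2 ratio of -2.96 ± 0.0983 in DOX_F and -2.61 ± 0.0502 in DOX libraries, PFKP to PFKL with 0.80 ± 0.0337 and 0.94 ± 0.0439, LDHA to LDHB with 0.36 ± 0.0448 and 0.67 ± 0.0487, EPAS1 to HIF1A with -1.54 ± 0.0518 and -2.15 ± 0.0537, and BNIP3L to BNIP3 with 0.78 ± 0.0987 in DOX_F and 1.17 ± 0.113 in DOX libraries. In DOX_F against CTRL libraries 9 pairs did not overlap (adjusted p = 0.0413 by the exact permutation test). The ratio of HK2 to HK1 was not among them, while that of ALDOC to ALDOA, with few ALDOC reads, was. Of all single genes tested, 10.9% did not overlap in DOX_F against DOX and 57.7% in DOX_F against CTRL libraries.

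**Figure D3:**
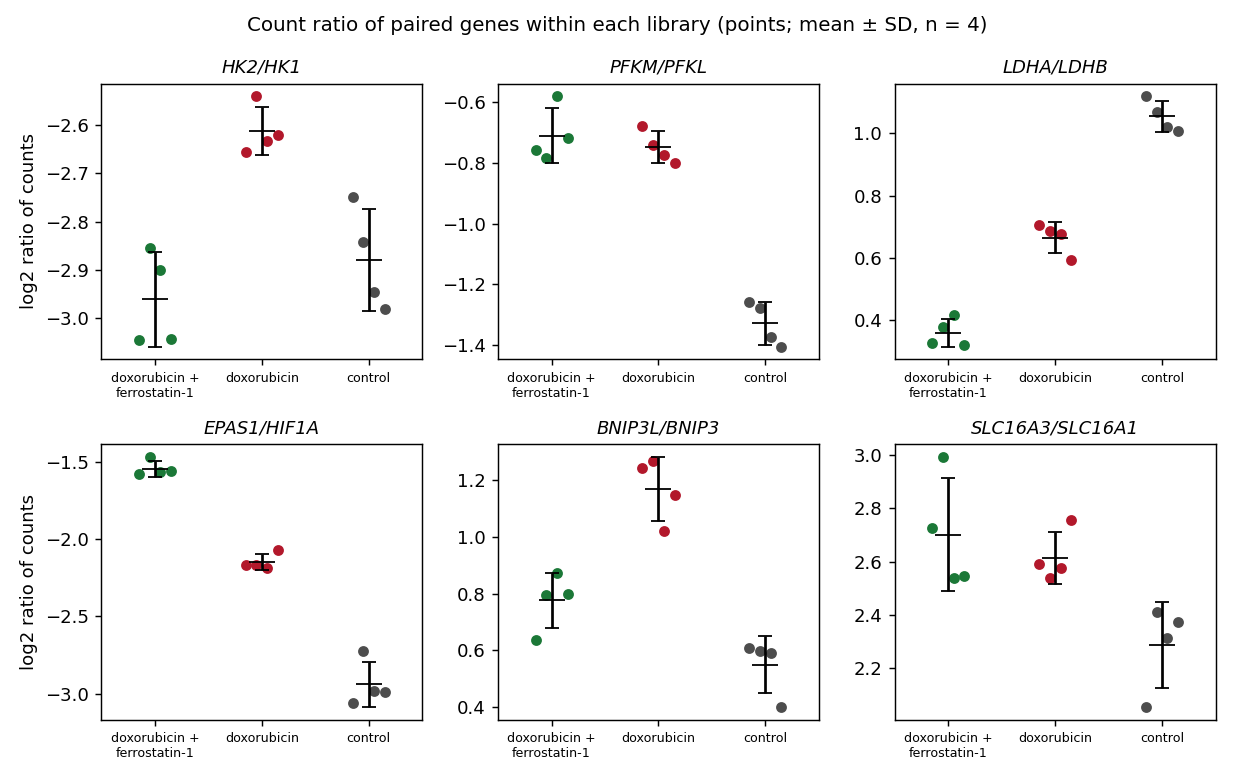
Log2 ratio of the counts of 2 related genes within each library (vertical axes, which do not start at 0), as points with mean ± SD, for doxorubicin with ferrostatin-1, doxorubicin and control. EPAS1 over HIF1A lies at -1.54, -2.15 and -2.94 in that order of groups and LDHA over LDHB at 0.36, 0.67 and 1.05, with no overlap between neighbouring groups, while HK2 over HK1 is highest with doxorubicin alone.

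Other genes of the same pathways, in lists written from general knowledge, give the surroundings. By library totals fewer of them were higher in DOX libraries than with TMM scaling, except among other regulators. Over all 13801 genes tested, 3244 were higher and 5756 lower by library totals. The counts were 20 higher and 12 lower among the further hypoxia targets, 4 and 9 among HIF regulators and 4 and 7 among genes of pyruvate entry. They were 5 and 3 among further isozymes, 4 and 3 among glycogen genes and 5 and 3 among other regulators. With TMM scaling and against the background of 32.2% higher and 31.8% lower in DOX against CTRL libraries, 22 of 36 tested further hypoxia target genes were higher and 8 lower (median 0.38). ANGPTL4, a secreted lipase inhibitor, averaged 36.4 ± 2.16 in DOX and 2.89 ± 0.860 CPM in CTRL libraries (3.66 ± 0.14, adjusted p = 8.79e-12), and the collagen lysyl hydroxylases PLOD1 and PLOD2 rose by 1.14 ± 0.041 and 1.19 ± 0.044 (adjusted p = 4.58e-12 and 6.72e-12). So in DOX libraries these 3 genes were higher, while VEGFA and 8 of the 36 further targets were lower. With ferrostatin-1, 3 of the 36 were higher and 4 lower than in DOX libraries, where the background was 2.16% and 2.85%. STC2, a secreted glycoprotein, had 808 ± 56.1 CPM in DOX_F, against 1558 ± 36.5 CPM in DOX libraries (-0.95 ± 0.047, adjusted p = 1.34e-08), and PLOD2 was lower as well (-0.28 ± 0.043, adjusted p = 0.00107).

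Of 15 tested regulators of the HIF pathway, 5 were higher and 7 lower in DOX than in CTRL libraries. The background was 32.2% higher and 31.8% lower there, and 2.16% and 2.85% with ferrostatin-1. CITED2, which competes with HIF alpha for the coactivators CREBBP and EP300, averaged 1010 ± 12.2 CPM in DOX and 320 ± 14.02 CPM in CTRL libraries (1.66 ± 0.042, adjusted p = 1.11e-13), and HIF1AN, the asparaginyl hydroxylase that blocks the same contact, was higher by 0.45 ± 0.042 (adjusted p = 2.37e-07). OS9, a lectin of protein quality control in the endoplasmic reticulum, was higher by 0.60 ± 0.044 (adjusted p = 1.95e-08) and VHL lower (-0.41 ± 0.056, adjusted p = 1.28e-05). With ferrostatin-1 2 of the 15 were lower than in DOX libraries: CITED2 at 852 ± 40.9 CPM in DOX_F, against 1010 ± 12.2 in DOX libraries (-0.24 ± 0.041, adjusted p = 0.00198), and ARNT2, a partner of bHLH-PAS factors (-0.21 ± 0.057, adjusted p = 0.0492).

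Of 15 tested genes that bring pyruvate into the mitochondrion and its first oxidation steps, 6 were higher and 6 lower in DOX than in CTRL libraries. Among all genes the shares were 32.2% and 31.8%, and with ferrostatin-1 2.16% and 2.85%. The pyruvate dehydrogenase subunits DLD (0.40 ± 0.051, adjusted p = 6.38e-06) and PDHB (0.28 ± 0.048, adjusted p = 0.000112) were higher, and citrate synthase CS was lower (-0.28 ± 0.036, adjusted p = 7.6e-06). With ferrostatin-1 the single call was PDP1, the phosphatase that reactivates pyruvate dehydrogenase. It averaged 51.8 ± 1.74 CPM in DOX_F, against 95.9 ± 7.87 CPM in DOX libraries (-0.89 ± 0.055, adjusted p = 1.24e-07), and 87.8 ± 2.19 CPM in CTRL libraries.

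Of 13 further isozymes and transporters 6 were higher and 3 lower in DOX than in CTRL libraries. Shares over all genes were again 32.2% and 31.8%, and with ferrostatin-1 2.16% and 2.85%. SLC2A10, a glucose transporter family member (1.22 ± 0.069, adjusted p = 9.17e-10), the related SLC2A6 (0.66 ± 0.082, adjusted p = 5.19e-06) and BSG, the chaperone of monocarboxylate transporters (0.40 ± 0.055, adjusted p = 1.37e-05), were higher, and PGAM5, a mitochondrial phosphatase that shares the mutase name, was lower (-0.44 ± 0.051, adjusted p = 2.51e-06). SLC16A7, the transporter MCT2, was the single call with ferrostatin-1, at 24.4 ± 3.36 CPM in DOX_F, against 33.3 ± 2.11 CPM in DOX libraries (-0.45 ± 0.094, adjusted p = 0.0104).

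Of 10 tested glycogen genes 6 were higher and 1 lower in DOX than in CTRL libraries, among the higher ones PHKB, a subunit of phosphorylase kinase (0.35 ± 0.045, adjusted p = 7.37e-06), the liver-type phosphorylase PYGL (0.33 ± 0.047, adjusted p = 1.92e-05) and phosphoglucomutase PGM1 (0.29 ± 0.043, adjusted p = 3.21e-05). The brain-type phosphorylase PYGB was the single glycogen gene called with ferrostatin-1, at 371 ± 10.0 CPM in DOX_F, against 282 ± 3.16 CPM in DOX libraries (0.40 ± 0.035, adjusted p = 6.04e-06). Of 10 tested regulators known from other pathways 5 were higher and 2 lower with doxorubicin. For both lists the background was 32.2% higher and 31.8% lower with doxorubicin, and 2.16% and 2.85% with ferrostatin-1. TIGAR, which lowers fructose 2,6-bisphosphate, averaged 63.7 ± 3.58 CPM in DOX and 19.3 ± 0.647 CPM in CTRL libraries (1.73 ± 0.062, adjusted p = 4.94e-12). The sestrins SESN2 (1.54 ± 0.048, adjusted p = 9.92e-13) and SESN1 (1.27 ± 0.078, adjusted p = 2.36e-09), which restrain mTORC1, were higher too. With ferrostatin-1 these 3 genes did not pass, TIGAR for example with 0.01 ± 0.057 (adjusted p = 0.967). Proliferation markers differed between DOX and CTRL libraries, as given above.

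**Figure D4:**
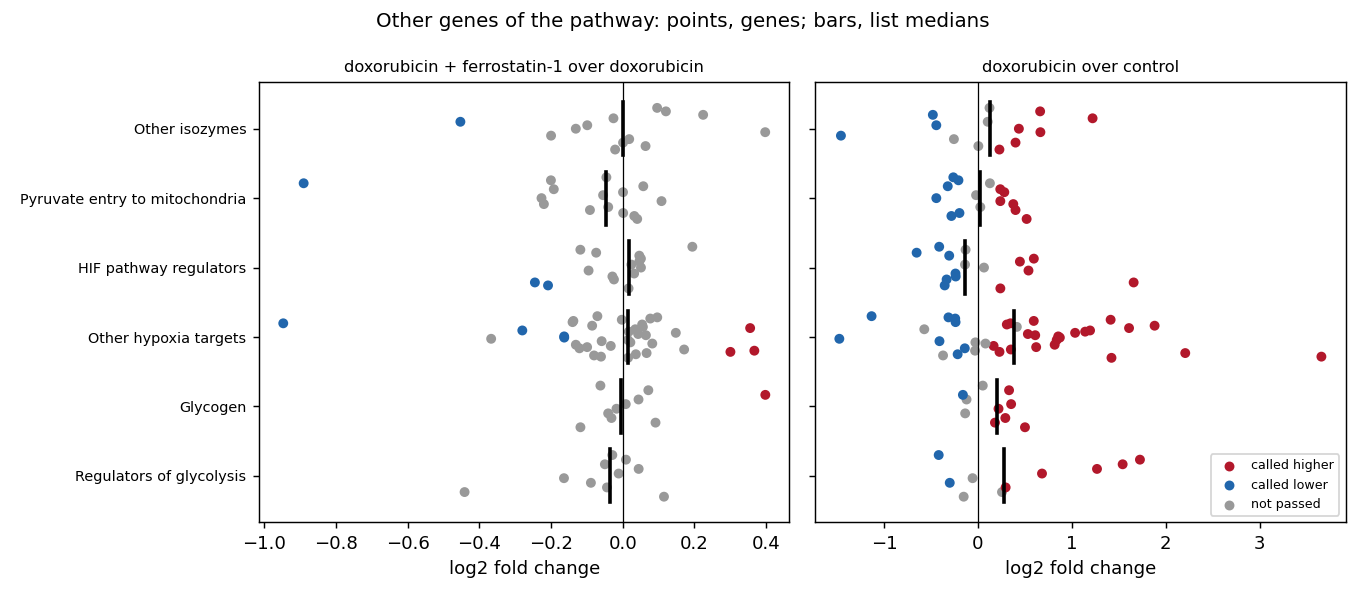
Log2 fold change (horizontal axes) of each tested gene of 6 lists of related genes, for doxorubicin with ferrostatin-1 over doxorubicin (left) and doxorubicin over control (right); black bars are list medians. In the right panel the further hypoxia targets have a median of 0.38, and in the left panel all 6 medians lie close to 0 with single genes away from them, among them STC2 (-0.95) and PDP1 (-0.89).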

How the data were processed

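RNA of 12 RPE1 libraries was read as pairs from a kit that does not mark strands, per the labels' protocols. The authors deposited 1 table of whole-number counts per gene identifier. Salmon, DESeq2 and the build GRCh38 appear in the submitters' processing notes without version or role, and how estimated counts became whole numbers is not given in the sources used here. Columns carry a group and a number, and titles carry other numbers, so a column could be assigned to a group and not to a title. No label says that the replicates were separate cultures, so p-values cover the spread between these libraries, which may be technical.

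Members were matched by symbol, and identifiers sharing a symbol were summed (37 identifiers for 35 genes). Members, lists and tests were chosen with earlier results of these data known. All gene positions were taken from GENCODE 29 by symbol. LDHA's identifier is not in GENCODE 29. Of 22498 identifiers, 1935 have no symbol in the table.

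Genes were filtered with edgeR's filterByExpr (minimum count 10, total 15), which left 13801, scaled by TMM and fitted with 1 mean per group over all 12 libraries. Two-sided quasi-likelihood p-values were adjusted across these genes by the Benjamini-Hochberg method, and every adjusted p not named otherwise comes from this fit. A standard error was taken as the size of the log2 fold change over the root of its F statistic. Ratios had 0.5 added to both counts. Values per kilobase divide CPM by the principal transcript's length. Per-library levels are given for genes called at 2-fold or more, for those called with ferrostatin-1, and for GAPDH, HIF1A, LDHA, SLC2A1, VEGFA and CA9, and PDK3 was added after its values were seen. From each list the text names up to 4 called genes with the smallest p with doxorubicin and up to 2 with ferrostatin-1. Some genes that this rule picks are not reported here, though the counts include them. Alternatives were library totals, DESeq2, no filter, 2 groups only, thinning, single identifiers, a replicate block and leaving out each library. Software was R 4.3.3 (edgeR 4.0.16, limma 3.58.1, DESeq2 1.42.0) and Python 3.11.15 (numpy 2.4.6, pandas 2.3.3, scipy 1.17.1, matplotlib 3.10.9).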

Additional observations from a re-analysis of the deposited data

Results flagged for a closer look

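In 10 of 129 sets of 4 libraries (a gene or a ratio in 1 group), 1 library stood away from the other 3 by more of the set's range than Dixon's 95% critical value allows, and chance alone gives about 1 in 20. DOX replicate 3 accounted for 4 of them: it was low for GPI (232 CPM, others 248.2 to 249.4) and high for GAPDH (5658 CPM, others 5215 to 5286), PGAM1 (996 CPM, others 929 to 937) and LDHB (632 CPM, others 577 to 585). None of these 4 genes passed the test with ferrostatin-1. CTRL replicate 1 was low for PFKL (163 CPM, others 173 to 175), for ALDOA (1006 CPM, others 1126 to 1137) and for the log2 ratio of PFKFB4 to PFKFB3 (-0.83, others -0.60 to -0.57). DOX_F replicate 4 was high for PGK1 (358 CPM, others 336 to 339). DOX replicate 4 had the highest log2 ratio of EPAS1 to HIF1A (-2.07, others -2.19 to -2.17), and CTRL replicate 4 the lowest of BNIP3L to BNIP3 (0.40, others 0.59 to 0.61).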

How the results depend on the processing

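The counts of genes called, of these pathway genes called and of ratios apart kept within 1.5 times the reported value in every alternative run. Leaving out 1 library gave 20 to 25 pathway genes with doxorubicin (20 without DOX replicate 2), 5 to 8 with ferrostatin-1, and 491 to 786 of all genes with ferrostatin-1, against 692. DESeq2 called 24 and 10 pathway genes. Of the calls of single genes, 79 became weaker and 18 stronger over all alternatives. Among called differences, direction turned only with library totals, which shifted the median of all genes to -0.15 with doxorubicin and lowered the share of higher calls to 3244 of 9000, against 4441 of 8834: HK1 (-0.0193), PGK1 (-0.0124) and SLC2A1 (-0.0172) for DOX over CTRL, and LDHB (-0.00135) and PGK1 (-0.0425) for DOX_F over CTRL. GAPDH (-0.0836 for DOX and -0.124 for DOX_F over CTRL) and PFKL (-0.126 for DOX_F over CTRL) turned with library totals and were called only then. Sign changes where neither value passed occurred for 13 differences, with values of at most 0.105 on the log2 scale except ALDOC (up to 0.363). With the replicate block, 23, 6 and 24 pathway genes were called (DOX over CTRL, DOX_F over DOX, DOX_F over CTRL) against 25, 7 and 25, and 502 of all genes with ferrostatin-1. Libraries with the same number correlated at -0.0946 to 0.0535 and others at -0.146 to 0.153. These values gave no sign that the numbers pair libraries, and they cannot exclude it. Depth limits ALDOC, CA9, PDK3 and EGLN3, with at most 22 reads.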
